A study of Homo sapiens with 4 samples.

Results

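Genes for the enzymes that write and erase methyl groups on histones and on DNA were followed in the human hepatoma cell line HepG2 after depletion of the histone demethylase LSD1 (gene KDM1A). The set has 44 genes, chosen as known methyltransferases and demethylases by their function, out of 19775 genes with a probe set that names a single gene. All 44 were measured, by 151 probe sets; 37 of them had over 1 probe set. Expression was measured on 4 Affymetrix HG-U133 Plus 2 arrays, which read a transcript through 1 or more groups of short probes (probe sets). For the control group (2 arrays), cells had received siRNA against GL3. For the knockdown group (2 arrays), cells had received siRNA-1 against LSD1 for the first array and siRNA-2 against LSD1 for the other. Cells of both groups grew in medium with 25 mM glucose and 10% serum, were transfected at about 50% confluence and were harvested after 4 days. Whether the arrays within a group stand for separate cultures is not given in the labels, so the p-values reflect array-to-array spread that may be technical. In RNA of whole cultures, fewer cells carrying a transcript and less of it per cell cannot be told apart.

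Histone lysine methylation is set by methyltransferases, most of which carry a SET domain and use S-adenosylmethionine as methyl donor. It is removed either by flavin-dependent enzymes such as LSD1 or by the JmjC demethylases, which need iron and 2-oxoglutarate. The residue decides what a mark is known for: H3K4 and H3K36 methylation mark active promoters and transcribed gene bodies, while H3K9 and H3K27 methylation mark heterochromatin and Polycomb-repressed genes. On DNA, DNMT enzymes methylate cytosine and TET enzymes oxidise the methyl group, also with 2-oxoglutarate.

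The deposited numbers are RMA values (log2 is assumed), which the authors had centred for each probe set on the median of the 4 arrays. Levels are therefore gone, and only differences within a probe set are given; the middle pair of arrays mirrors itself around 0 by construction. Brightness was judged from the rounding step left in the numbers, which put the probe set used for 27 members in the brightest class (8 or above on the log2 scale), 16 in the middle class (4 to 8) and 1, NSD1, in the dim class. The standard deviation of the centred values over all probe sets was 0.164 and 0.154 for the controls, then 0.197 under siRNA-1 and 0.384 under siRNA-2. The 18 hybridization spike-in probe sets, which carry no cell RNA, had a mean 1.285 higher on the knockdown arrays than on the controls. The 5′ minus 3′ difference of the ACTB control probe sets, a sign of RNA quality, was 0.34 and 0.23 on the controls and -0.26 and -0.38 with siRNA-1 and siRNA-2, a shift of -0.61, and that of GAPDH shifted by -0.18. The part of the spike-ins and of the 5′ to 3′ shift in the results below was not tested. All 9 hepatocyte markers measured were in the brightest class and each read higher with either siRNA than on either control, by a median of 0.367. Of the markers of other cells, 1 of 5 endothelial, 4 of 7 stromal and 2 of 4 leukocyte genes were in the brightest class. In each of these lists 1 gene lay above both controls with either siRNA (PECAM1 by 0.486, COL1A1 by 1.876 and CD14 by 1.307), and 1 stromal gene, DCN, lay below by a difference of -0.273; the medians were 0.107, 0.0073 and 0.0237. Their part in the results was not tested.

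KDM1A itself read 1.23 and 1.17 in control cells, then -1.55 under siRNA-1 and -1.17 under siRNA-2. It was low on both knockdown arrays, with a difference of -2.56 ± 0.16 (SE) on the log2 scale, although the adjusted p over all genes was 0.0854 (limma, 2 arrays against 2, Benjamini-Hochberg). Across the 44 enzymes, 16 lay above both controls with either siRNA, 11 lay below both controls with either siRNA, and 17 overlapped. Over all genes, 23.6% lay higher and 25.4% lower in this sense, against 36.4% and 25.0% of the enzymes. The median difference between knockdown and control was 0.0964 for the enzymes and -0.00398 for all genes. These counts depend on the probe sets: with the mean of all probe sets of a gene, 11 enzymes lay higher and 8 lower (22.6% and 27.1% of all genes), with a median of 0.0387. Without probe sets with the suffix _s or _x, 9 of 36 lay higher and 10 lower (22.7% and 24.3% of all genes), with a median of 0.0442.

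No enzyme passed the limma test of knockdown against control, in which 0.00506% of all genes passed. At an unadjusted p under 0.05 there were 6 enzymes, which is 13.6% of the set, beside 14.6% of all genes. These were DNMT3B, SMYD3 and SMYD2, which were higher, and JMJD6, KDM7A and DOT1L, which were lower. A p that misses the threshold does not show that a gene was unchanged: the 2 knockdown arrays differed from each other by a median of 0.365 over the enzymes, and the 2 controls by 0.0767. Each siRNA was therefore also compared with the controls alone, in a limma model with 3 groups whose spread comes from the 2 control arrays, which assumes that a single knockdown array varies as they do. Both comparisons share the control arrays. With siRNA-1 no enzyme and 0.0% of all genes passed; 10 enzymes (22.7%) and 26.7% of all genes had an unadjusted p under 0.05. With siRNA-2, 14 enzymes (31.8%) rose and 5 (11.4%) fell, where 13.3% of all genes rose and 10.2% fell (23.5% in either direction). These siRNA-2 calls depend on the processing: 0 enzymes passed with the spread pooled over both groups, and 0 after quantile normalization, where 0 of all genes passed too. The pooled spread holds the difference between the siRNAs, so a gene that moved with siRNA-2 alone could not pass with it. The quantile step was run on centred values and makes the spread of all arrays alike. Its result therefore does not speak of normalization of the levels, which are gone. When probe sets with the suffix _s or _x were left out, 11 of the 36 enzymes still measured passed.

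**Figure D1:**
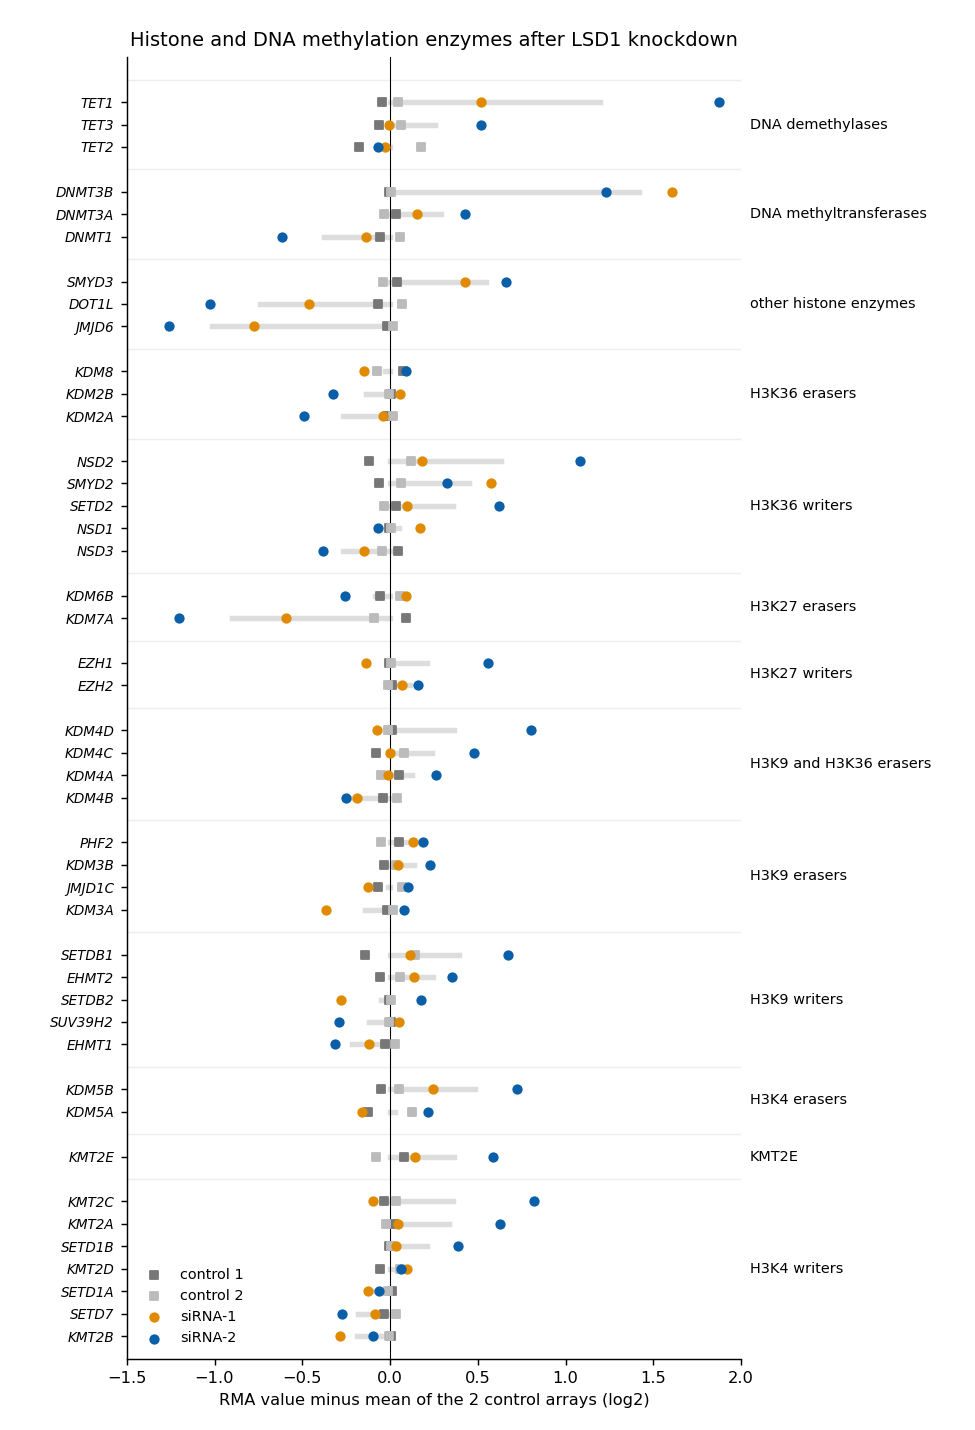
Values of the 44 enzymes by role, each as the RMA value minus the mean of the 2 control arrays (log2 scale). Squares are the control arrays, the orange circle is siRNA-1, the blue circle is siRNA-2 and the grey bar is the mean of the 2 knockdown arrays. The control arrays lie close together, with a median difference of 0.0767, while the 2 knockdown arrays lie a median of 0.365 apart.

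Among the DNA methyltransferases, the de novo enzyme DNMT3B had the highest reading of the set with siRNA-1, and DNMT1, which copies methylation after replication, read lower. DNMT3B read -0.62 and -0.61 on the controls, then 0.99 and 0.61 with siRNA-1 and siRNA-2, so both knockdown arrays lay well above the controls. The mean difference was 1.42 ± 0.16, or 2.67-fold (limma adjusted p = 0.139). With siRNA-1 it was 1.61 (adjusted p = 0.0815 in the limma model with 3 groups). No gene reached a lower adjusted p with siRNA-1, but other genes, KDM1A and MAT2A among them, shared this value. With siRNA-2 DNMT3B rose by 1.23 ± 0.07 (adjusted p = 0.0144). It rests on a single probe set. DNMT3A, the other de novo enzyme, read -0.06 and -0.13 on the controls and 0.06 and 0.33 with the siRNAs, and rose with siRNA-2 by 0.43 ± 0.08 (limma adjusted p = 0.0476). A further DNMT3A probe set went the other way, with a difference of -0.54 with siRNA-2. DNMT1 read 0.04 and 0.15 on the controls, then -0.04 and -0.52 with siRNA-1 and siRNA-2. The difference was -0.61 ± 0.09 with siRNA-2, a fall that passed the test (limma adjusted p = 0.0328), and -0.13 with siRNA-1.

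Of the DNA demethylases, TET1 was the enzyme with the largest difference between the siRNAs. It measured -0.33 and -0.24 on the controls, then 0.24 and 1.59 with siRNA-1 and siRNA-2. With siRNA-2 it rose by 1.87 ± 0.08, or 3.66-fold (limma adjusted p = 0.0144); with siRNA-1 it was 0.52 above the controls (adjusted p = 0.106). A second TET1 probe set lay 0.78 and 2.50 above the controls. TET3 read -0.09 and 0.03 on the controls, then -0.03 and 0.49 with siRNA-1 and siRNA-2, and rose with siRNA-2 by 0.52 ± 0.09 (limma adjusted p = 0.0462), while its siRNA-1 array lay among the controls. TET2 overlapped the controls, with readings of 0.02 and -0.02 between control readings of -0.13 and 0.22.

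The stretch before the transcription start is shown for 2 of the enzymes that were higher, DNMT3B and TET1, and 1 that was lower, KDM7A. They had the largest mean differences in size among the enzymes with a sequence entry, so they were chosen after their values were seen. JMJD6, with a larger difference than KDM7A, had no entry. Their content of CpG, the dinucleotide that DNMT enzymes methylate, was not a reason for the choice. The sequences are from RefSeq on GRCh38.p14, 250 bases before the first listed start, 5′ to 3′ on the gene's strand, with each CG in capitals. Only that start was used, with 1 start listed for DNMT3B and for KDM7A and 3 for TET1. A gene can have other starts, so a stretch shown here need not be its main promoter.
DNMT3B, chr20:32779602-32779851, plus strand: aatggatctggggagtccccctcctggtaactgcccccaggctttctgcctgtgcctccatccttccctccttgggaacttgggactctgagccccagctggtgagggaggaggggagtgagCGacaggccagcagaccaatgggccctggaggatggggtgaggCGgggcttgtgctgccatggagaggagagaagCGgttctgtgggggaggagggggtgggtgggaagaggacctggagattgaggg
TET1, chr10:68560087-68560336, plus strand: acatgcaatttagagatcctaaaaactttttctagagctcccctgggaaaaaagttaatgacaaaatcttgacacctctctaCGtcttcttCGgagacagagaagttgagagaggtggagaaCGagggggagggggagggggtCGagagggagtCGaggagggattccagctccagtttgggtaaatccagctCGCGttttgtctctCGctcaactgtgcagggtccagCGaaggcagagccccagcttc
KDM7A, chr7:140176984-140177233, minus strand: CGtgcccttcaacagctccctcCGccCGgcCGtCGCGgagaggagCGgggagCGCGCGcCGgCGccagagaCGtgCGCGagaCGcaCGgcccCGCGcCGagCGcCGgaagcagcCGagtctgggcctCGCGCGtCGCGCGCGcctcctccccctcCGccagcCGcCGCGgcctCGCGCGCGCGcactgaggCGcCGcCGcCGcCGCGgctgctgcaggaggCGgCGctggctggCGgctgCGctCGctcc
The DNMT3B stretch held 3 CG and an observed-to-expected CpG ratio of 0.129 at 64% GC. That of TET1 held 9 CG, with a ratio of 0.559 at 51.6% GC. That of KDM7A held 50 CG, with a ratio of 1.21 at 81.6% GC. Among the 40 enzymes with an entry, 34 (85.0%) had a ratio of at least 0.6 and GC of at least 50%, against 44.9% of all 27305 entries; the 6 that did not were DNMT3B, JMJD1C, NSD1, SETDB1, TET1 and TET2. Searched on both strands, the GC box GGGCGG was in 67.5% of the enzymes' stretches and 42.3% of all, and the E-box CACGTG was in 20.0% and 6.49%. The TATA box TATAAA was in 0 of 40 and in 11.1% of all. These matches describe the sequences and were not tested against the expression values.

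**Figure D2:**
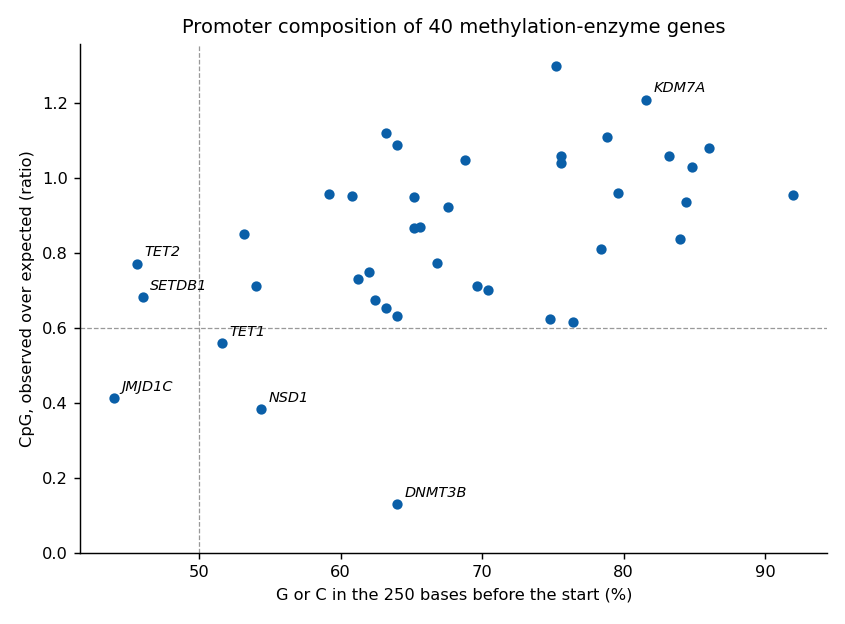
GC content (percent) and observed-to-expected CpG ratio of the 250 bases before the first listed start of 40 of the enzymes, with dashed lines at 50% GC and a ratio of 0.6. Other starts of a gene were not read. DNMT3B, with a ratio of 0.129, and TET1, at 0.559, lie below the line that 34 enzymes lie above on both scales.

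Of the enzymes with other histone substrates, JMJD6 and DOT1L were lower and SMYD3 was higher on both knockdown arrays. JMJD6, a JmjC protein known as a lysyl hydroxylase and reported as an arginine demethylase, read 0.38 and 0.41 on the controls, then -0.38 and -0.87 with siRNA-1 and siRNA-2. Its mean difference was -1.02 ± 0.19, a 2.02-fold reduction (limma adjusted p = 0.208), and with siRNA-2 the fall was -1.26 ± 0.07 (adjusted p = 0.0144). Further JMJD6 probe sets differed from the controls by -1.24 and -0.90 with siRNA-2, and a dim one by 0.12. DOT1L, the methyltransferase of H3K79, read 0.20 and 0.34 on the controls, then -0.20 and -0.76 with siRNA-1 and siRNA-2, with a siRNA-2 difference of -1.02 ± 0.10, a 2.03-fold fall (limma adjusted p = 0.0207). Its other 2 probe sets, 1 dim and 1 with no brightness class, differed by -0.16 and -0.52 with siRNA-2, and with the mean of its probe sets the DOT1L knockdown difference was -0.32 in place of -0.74. SMYD3, a methyltransferase with histone and other protein substrates, read -0.20 and -0.27 on the controls and 0.20 and 0.43 with the siRNAs, and rose with siRNA-2 by 0.66 ± 0.08 (limma adjusted p = 0.0255). The controls and knockdown arrays did not overlap for any of the 3.

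Of the H3K27 enzymes, the eraser KDM7A fell and the writer EZH1 rose with siRNA-2. KDM7A, an eraser of H3K9 and H3K27 methylation, read 0.43 and 0.25 on the controls, then -0.25 and -0.86 with siRNA-1 and siRNA-2. The mean difference was -0.90 ± 0.24 (1.86-fold, limma adjusted p = 0.267), and with siRNA-2 it was -1.20 ± 0.11, a 2.3-fold fall (adjusted p = 0.0204). A second KDM7A probe set gave differences of -0.88 and -1.78. KDM6B, the other H3K27 eraser of the set, overlapped the controls on the probe set used, with a mean difference of -0.08. Its 3 further probe sets that are not dim had mean differences of 0.08 to 0.15, and some of them lay above both controls. Of the catalytic subunits of Polycomb complex PRC2, EZH2 read -0.03 and -0.05 on the controls and 0.03 and 0.12 with the siRNAs, above both controls, and did not pass the test. EZH1 read -0.01 and 0.01 on the controls, then -0.14 and 0.56 with siRNA-1 and siRNA-2, so only the siRNA-2 array lay outside the controls upward, by 0.56 ± 0.07 (limma adjusted p = 0.0275). A further EZH1 probe set gave differences of -0.58 and -0.55.

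**Figure D3:**
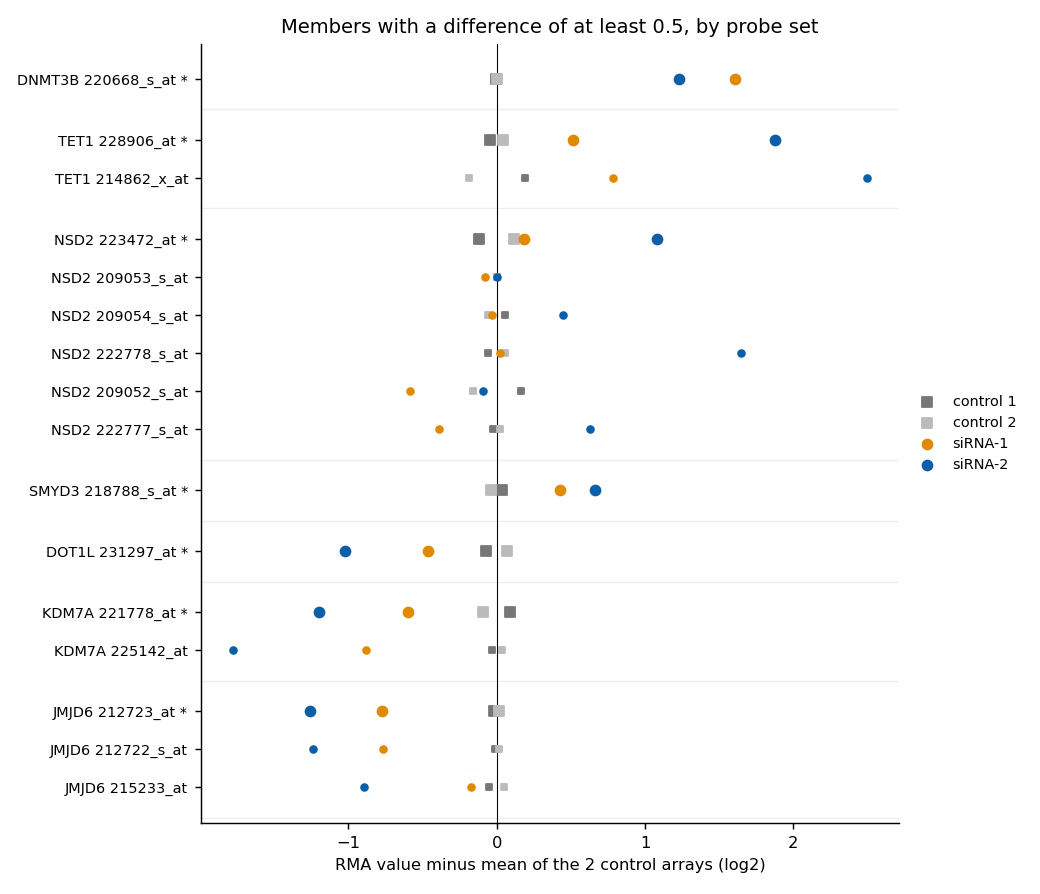
Values of the enzymes with the largest differences, minus the mean of the 2 control arrays (log2 scale), for probe sets that are not dim; larger markers with a star are the probe set used. Squares are the 2 controls, orange circles siRNA-1 and blue circles siRNA-2. TET1 reaches 1.87 with siRNA-2 and 0.52 with siRNA-1, while JMJD6 and KDM7A lie below the controls with both.

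With siRNA-2 and the probe sets used, 3 writers of H3K4 methylation rose, and so did KDM5B, an eraser of the same mark. With the mean of all probe sets of a gene, only SETD1B, which has 1 probe set, passed among them. Of the 7 writers, 3 lay above both controls on both arrays, 3 below and 1 overlapped. KMT2A (MLL1) read -0.01 and -0.05 on the controls, then 0.01 and 0.59 with siRNA-1 and siRNA-2, so the siRNA-2 array alone stood out (0.62 ± 0.07, limma adjusted p = 0.0248). KMT2C read -0.03 and 0.03 on the controls, then -0.10 and 0.82 with siRNA-1 and siRNA-2, a rise with siRNA-2 of 0.82 ± 0.08 (limma adjusted p = 0.0204). The 3 further KMT2C probe sets that are not dim differed by 0.15, 0.23 and -0.33 with siRNA-2, and KMT2C did not pass with the mean of its probe sets. For KMT2A, the 6 further probe sets that are not dim differed by -0.19 to 0.86 with siRNA-2. With the mean of its probe sets the KMT2A knockdown difference was 0.11 in place of 0.33. SETD1B read -0.02 and -0.01 on the controls and 0.01 and 0.37 with the siRNAs, and rose with siRNA-2 by 0.39 ± 0.07 (limma adjusted p = 0.0463). KMT2E, an MLL-family protein for which no methyltransferase activity is established, read -0.03 and -0.19 on the controls and 0.03 and 0.47 with the siRNAs. It rose with siRNA-2 by 0.59 ± 0.10 (limma adjusted p = 0.046). The other 2 KMT2E probe sets differed by 0.31 and 0.18 with siRNA-2, and by -0.04 and -0.27 with siRNA-1. Without probe sets with the suffix _s or _x, the KMT2E knockdown difference was 0.13 in place of 0.36. KDM5B (JARID1B) read -0.20 and -0.10 on the controls, then 0.10 and 0.57 with siRNA-1 and siRNA-2, and rose with siRNA-2 by 0.72 ± 0.08 (limma adjusted p = 0.0254). On the probe set used for each of these 5 genes the siRNA-2 array was the highest of the 4. When probe sets with the suffix _s or _x were left out, a dim KDM5B probe set remained, with a mean difference of -0.36. KMT2B read 0.06 and 0.04 on the controls and -0.24 and -0.04 with the siRNAs. SETD7, an H3K4 monomethyltransferase, read 0.03 and 0.10 on the controls and -0.03 and -0.21 with the siRNAs. Both lay below the controls without passing the test, while KMT2D read -0.12 and -0.0021 on the controls and 0.04 and 0.0021 with the siRNAs, just above them. KDM5A, the other H3K4 eraser of the set, overlapped on the probe set used. The mean differences of its further probe sets ran from -0.34 to 0.15, and the one at -0.34, in the brightest class, lay below both controls.

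For H3K9, 0 of the 5 writers and 0 of the 4 erasers known for this mark alone passed the siRNA-2 test with the probe sets used; KDM7A, described above, is counted under H3K27. EHMT2 (G9a) read -0.15 and -0.04 on the controls, then 0.04 and 0.26 with siRNA-1 and siRNA-2, above both controls but with a limma adjusted p of 0.0825. The other 2 EHMT2 probe sets differed by -0.22 and -0.39 with siRNA-2. EHMT1, its partner, lay below the controls, at -0.05 and -0.24 against 0.05 and 0.10. SETDB1, which acts with TRIM28, read -0.27 and 0.01 on the controls and -0.01 and 0.55 with the siRNAs, so its siRNA-1 reading lay between the controls. After centring each array on its median, SETDB1 passed the siRNA-2 test. SETDB2 and SUV39H2 overlapped the controls too. A further SUV39H2 probe set, not dim, differed by -1.09 with siRNA-2, and SUV39H2 passed with the mean of its probe sets and with every probe set tested. Of the H3K9 erasers, KDM3B read -0.07 and -0.01 on the controls and 0.01 and 0.19 with the siRNAs, while KDM3A and JMJD1C overlapped. JMJD1C passed with every probe set tested, 1 of its probe sets differing by 0.92 with siRNA-2. Of the KDM4 family of erasers, KDM4D rose with siRNA-2. It read 0.01 and -0.01 on the controls, then -0.08 and 0.80 with siRNA-1 and siRNA-2 (0.80 ± 0.07, limma adjusted p = 0.0188). KDM4B, of the same family, read 0.07 and 0.15 on the controls and -0.07 and -0.14 with the siRNAs, below both controls without passing the test.

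For H3K36, the writers SETD2 and NSD2 rose with siRNA-2 and the eraser KDM2A fell. SETD2, the main enzyme for H3K36 trimethylation, read -0.03 and -0.10 on the controls, then 0.03 and 0.56 with siRNA-1 and siRNA-2, a rise with siRNA-2 of 0.62 ± 0.08 (limma adjusted p = 0.0265). NSD2 read -0.27 and -0.03 on the controls, 0.03 and 0.93 with the siRNAs, a rise with siRNA-2 of 1.08 ± 0.14, or 2.12-fold (limma adjusted p = 0.028). Differences of the other NSD2 probe sets ranged from -0.59 to 0.02 with siRNA-1 and from -0.09 to 1.65 with siRNA-2. KDM2A, a CpG-island binding eraser, read 0.01 and 0.05 on the controls, then -0.01 and -0.46 with siRNA-1 and siRNA-2, with a siRNA-2 difference of -0.49 ± 0.07 that passed the test (limma adjusted p = 0.0332). The other 2 KDM2A probe sets differed by -0.49 and -0.51 with siRNA-2. SMYD2, also a p53 methyltransferase, read -0.25 and -0.13 on the controls and 0.38 and 0.13 with the siRNAs, above both controls on both arrays (0.45 ± 0.14, limma adjusted p = 0.296).

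By class, the 19 writers of H3K4, H3K9, H3K27 or H3K36 held 8 that lay above both controls on both arrays, 5 below and 6 overlapping. Their median difference was 0.114. DOT1L and JMJD6, which fell with siRNA-2, and SMYD3 and KMT2E, which rose, are listed apart and not counted by class. The 15 erasers of these marks held 3 above, 3 below and 9 overlapping, with a median of -0.0128. Above and below lay 42.1% and 26.3% of the writers and 20% and 20% of the erasers, beside 23.6% and 25.4% of all genes. With siRNA-2, 6 writers (31.6%) rose and 0 fell, and 2 erasers (13.3%) rose and 2 fell, beside the 13.3% of all genes that rose and 10.2% that fell. These siRNA-2 calls depend on the probe sets. With the mean of all probe sets of a gene, the writers NSD2, SETD1B and SETD2 rose and SUV39H2 fell. Of the erasers, KDM4C and KDM4D then rose, and KDM2A, KDM2B and KDM7A fell. The difference between writers and erasers was not tested. The 17 enzymes that met none of the criteria for full values ranged from -0.27 to 0.39 in mean difference; SETD1A, EHMT1 and NSD3 lay below both controls on both arrays, KDM3B above, and the others overlapped.

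The 2 siRNAs did not give the same values. The siRNA-2 difference was larger in size than the siRNA-1 difference for 34 of 44 enzymes (77.3%), beside 61.9% of all genes. Differences of at least 2-fold from the controls were seen for 1 enzyme with siRNA-1, DNMT3B, and 6 with siRNA-2, where 1.36% and 6.1% of all genes were that far off. Neither siRNA has a replicate, so a test between them compares 1 array with 1 array against the spread of the 2 controls and speaks of these arrays. In it, the siRNA-2 array was higher than the siRNA-1 array for 4 enzymes (9.09%), and lower for 0; over all genes 4.18% were higher and 2.96% lower (7.14% in either direction). These were TET1, by 1.36 ± 0.09 (adjusted p = 0.0397), KMT2C, by 0.92 ± 0.09 (0.0418), KDM4D, by 0.88 ± 0.08 (0.0405), and EZH1, by 0.69 ± 0.08 (0.0472). KMT2C, KDM4D and EZH1 overlapped the controls when both arrays are considered, since their siRNA-1 reading was not above the controls. After quantile normalization or with every probe set tested, 0 enzymes passed this comparison. With the pooled spread none could pass, since that spread is itself made from the difference between the siRNAs.

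Where an enzyme had several probe sets, they did not always read alike. Of 107 further probe sets, 65 (60.7%) had the same direction as the one used, and 49 of 77 (63.6%) did once dim ones were left out. KMT2D, SETD7, PHF2, EZH1 and DNMT3A had probe sets that are not dim on both sides of the controls; for PHF2, an H3K9 eraser, the one used read -0.04 and -0.14 on the controls and 0.04 and 0.10 with the siRNAs, while a further probe set differed from the controls by -0.32 and -0.51.

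**Figure D4:**
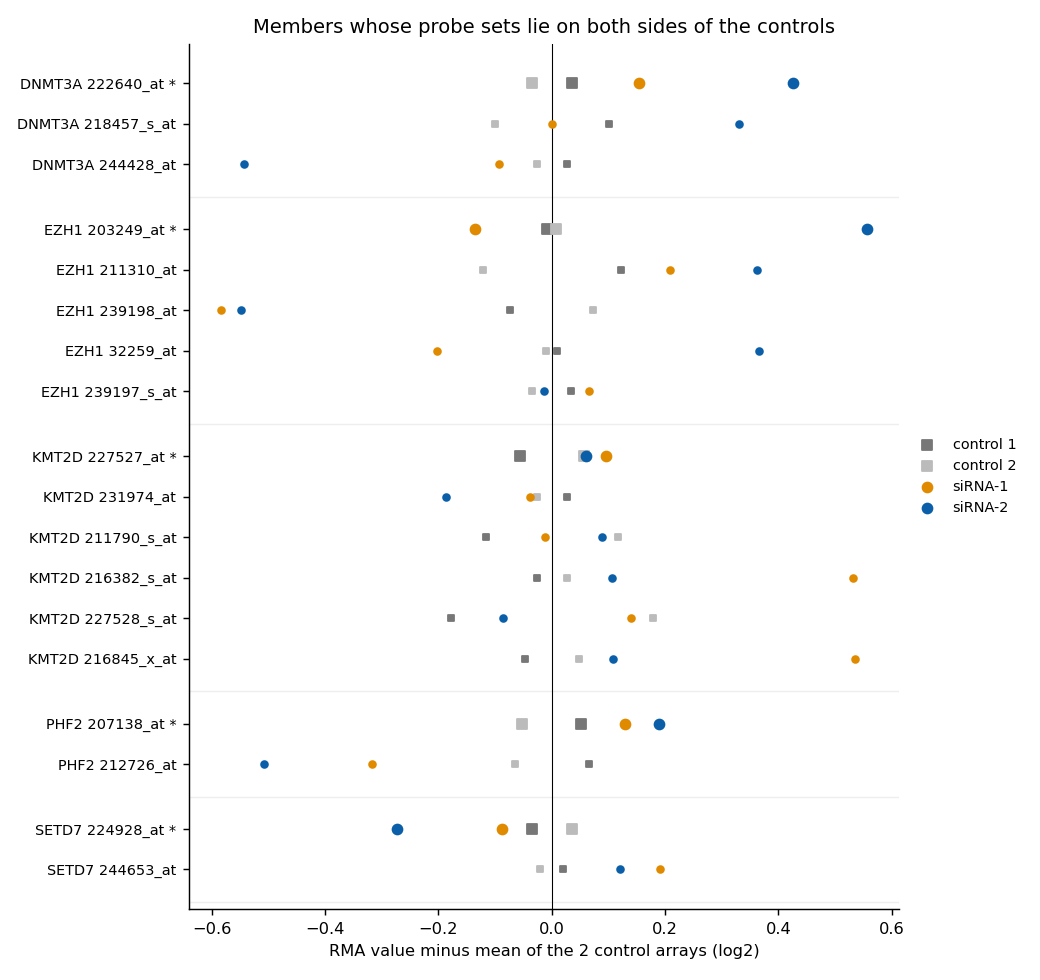
Values of the probe sets of the 5 enzymes with probe sets on both sides of the controls, minus the mean of the 2 control arrays (log2 scale), dim ones left out; squares are controls, orange circles siRNA-1 and blue circles siRNA-2, and a star marks the probe set used. For EZH1, the probe set used reads -0.14 and 0.56 while another reads -0.58 and -0.55.

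Lists of genes outside the set were read on the same arrays. They hold partners of these enzymes, and also other lysine methylation enzymes and arginine methyltransferases. Of 113 genes, 104 were measured and 0 passed the test of knockdown against control. Above both controls on both arrays lay 20 (19.2%), below lay 36 (34.6%) and 48 overlapped, beside 23.6% and 25.4% of all genes. Their median difference was -0.0746. With siRNA-2, 17 (16.3%) passed as higher and 19 (18.3%) as lower, beside 13.3% and 10.2% of all genes. Of the Polycomb PRC2 accessory genes, PHF19 read 0.51 and 0.46 on the controls, then -0.46 and -0.92 with siRNA-1 and siRNA-2 (-1.17 ± 0.19, limma adjusted p = 0.197), and MTF2 differed by -0.41 ± 0.10 (adjusted p = 0.257). Among the PRC1 genes, 7 of 14 lay below both controls and 1 above, with a median of -0.0888; PHC2 and PHC1 differed by -0.42 ± 0.10 and -0.43 ± 0.14 (limma adjusted p = 0.257 and 0.315), while the other PHC1 probe set differed by 0.01. In the S-adenosylmethionine and 2-oxoglutarate supply list, MAT2A, which makes the methyl donor, read 0.57 and 0.60 on the controls, then -0.57 and -1.13 with siRNA-1 and siRNA-2 (-1.43 ± 0.21, limma adjusted p = 0.195). A further MAT2A probe set, with no brightness class, differed by -0.15. IDH1, which makes 2-oxoglutarate, read -0.34 and -0.42 on the controls and 0.42 and 0.34 with the siRNAs (0.76 ± 0.11 higher, limma adjusted p = 0.178), and its other 2 probe sets were 0.70 and 0.84 higher. Of the arginine methyltransferase genes, 6 of 13 lay below both controls and 2 above; WDR77, the partner of PRMT5, differed by -0.56 ± 0.14 and PRMT6 by 0.48 ± 0.17 (limma adjusted p = 0.262 and 0.323). Of the H3K4 writer complexes, the core subunit WDR5 differed by -0.41 ± 0.15 (limma adjusted p = 0.343) and PSIP1, which tethers KMT2A to chromatin, by 0.36 ± 0.13 (0.330). In the list of H3K9 partners, MPHOSPH8, a HUSH complex reader, differed by -0.41 ± 0.11 (limma adjusted p = 0.267) and ATF7IP, which stabilises SETDB1, by 0.28 ± 0.12 (0.383), with other ATF7IP probe sets from -0.21 to 0.34. Among DNA methylation partners, the glycosylase TDG differed by -0.33 ± 0.12 (limma adjusted p = 0.340) and the helicase HELLS by -0.35 ± 0.15 (0.390), with other HELLS probe sets from -0.49 to 0.50. Of the 22 other lysine methyltransferases and demethylases measured, 4 (18.2%) lay above both controls and 10 (45.5%) below, with a median of -0.0973. Among them, PRDM2 differed by -0.78 ± 0.18 (limma adjusted p = 0.244) and KMT5B, an H4K20 writer, by -0.47 ± 0.11 (0.251). The other probe sets of PRDM2 ran from -0.39 to 0.09, and those of KMT5B were at -0.04 and 0.03.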

How the data were processed

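Total RNA of HepG2 cells was labelled with biotin with a 3' IVT kit and read on 4 arrays, per the labels. The authors deposited values made with RMA, per the submitters' processing notes. The deposited values are taken to be log2, the base RMA gives; the labels give no log base or RMA version, nor whether the arrays were normalized as 1 set. The values show that the authors also centred each of 54675 probe sets on the median of the arrays (largest deviation 5.0e-07), so levels are gone. No further normalization was applied. Brightness classes came from the numeric step of the values; by chance, about 1 probe set in 8 is placed a class too bright. They replaced the mean level that the design had named. Gene symbols came from GEO's platform annotation, updated through Entrez identifiers (41097 with 1 symbol, 1801 with several, which were not used, and 11777 unnamed here). Each gene used its brightest class, then no suffix before _a, _s or _x, then the identifier, which left 19775 genes. limma 3.58.1 in R 4.3.3 compared groups (two-sided, Benjamini-Hochberg over all genes, threshold 0.05). The 3-group model takes its spread from the 2 controls. The smallest two-sided p of an exact permutation test here is 0.333, so none is given. An enzyme was given in full where it passed any test, or where it differed by at least 0.5 with both knockdown arrays beyond both controls. It was also given in full where it had the smallest unadjusted p of its role group, or where its probe sets that are not dim lay on opposite sides of the controls. Of each list outside the set, the 2 genes with the smallest unadjusted p were named. The members, the lists and the tests were chosen with earlier results of these data known. The fits were tested on simulated data. Alternatives were tried for normalization, probe set choice, dim genes and single arrays.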

Additional observations from a re-analysis of the deposited data

Results flagged for a closer look

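The siRNA-2 array differed from the siRNA-1 array, by the limma test of that difference, for 4 enzymes: TET1 by 1.358, KMT2C by 0.9182, KDM4D by 0.8802 and EZH1 by 0.6914 on the log2 scale, all higher with siRNA-2. These compare 1 array with 1 array, with the spread taken from the 2 controls and no replicate of either siRNA, so they speak of these arrays. The hybridization spike-ins, which carry no cell RNA and enter no comparison between groups, had a mean 1.285 higher on the knockdown arrays than on the controls.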

How the results depend on the processing

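Of the 27 enzymes given in full, 21 kept the direction of their mean difference under every alternative run, and 7 of 292 values reversed. With the mean of all probe sets of a gene, KMT2C was -0.034 and PHF2 -0.127; without probe sets with the suffix _s or _x, KDM5B was -0.36. Without the siRNA-2 array, KMT2C was -0.098, KDM4D -0.076, EZH1 -0.135 and TET3 -0.0068; without the siRNA-1 array they were 0.8199, 0.8043, 0.5561 and 0.5203. Knockdown against control called 0 enzymes, and 1 after quantile normalization (JMJD6, with 2.04% of all genes). Leaving out the siRNA-1 array repeats the siRNA-2 comparison, and leaving out the siRNA-2 array repeats that of siRNA-1. These fits are therefore not separate checks. With siRNA-1, 1 enzyme passed with the mean of probe sets (DNMT3B, with 0.566% of all genes) and 2 with each array centred on its median (DNMT3B and JMJD6, with 4.03%). With siRNA-2, the 19 enzymes that passed (beside 23.5% of all genes) became 11 without _s and _x probe sets, of which 10 are shared (18.3% of all genes passed). Their number was 0 after quantile normalization of the centred values and 0 with the spread of both groups pooled, where 0 of all genes passed too. It lay between 17 and 24 under the others. The 4 enzymes that differed between the siRNAs became 11 without dim genes (19.3% of all genes passed) and 10 with median centring (16.3%). Their number was 0 with quantile normalization and with every probe set tested. The pooled spread holds the difference between the siRNAs, so it could let none pass here. The 16 enzymes above both controls became 9 of 36 without _s and _x probe sets, beside 22.7% of all genes. When each array was left out in turn, 17 to 28 of the 44 lay above, beside 31.6% to 40.3% of all genes. The 28 came without siRNA-1, where 40% of all genes lay above. The 11 below became 11 to 19 in this way, beside 33.9% to 44.6% of all genes. The 19 came without siRNA-2, where 40% of all genes lay below. The median difference lay between -0.0035 and 0.183 when each array was left out. The causes were not tested. The titles number the arrays of both groups alike, but same-numbered arrays did not deviate together (correlation 0.0351 over 19775 genes), and with the replicate block 0 enzymes passed. The number of arrays limits the precision.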

Other observations

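Beyond the 44 enzymes, 6 of the 104 genes on the lists outside the set (5.77%, beside 6.1% of all genes) differed by at least 2-fold with siRNA-2. They were MAT2A, PHF19 and PRDM2, described above, and KDM1B, CBX5 and D2HGDH. These last and UHRF1 were chosen after their values were seen, and rest on the limma model whose spread comes from the 2 controls. KDM1B (LSD2), the paralog of LSD1, read 0.10 and 0.22 on the controls, -0.10 with siRNA-1 and -0.89 with siRNA-2, a siRNA-2 difference of -1.05 ± 0.09 (limma adjusted p = 0.0193) beside -0.26 for siRNA-1 (0.211). CBX5, the heterochromatin protein that reads H3K9 methylation, read -0.22 and -0.16 on the controls and rose with siRNA-2 by 1.59 ± 0.07 (limma adjusted p = 0.0144), with a siRNA-1 difference of 0.35. D2HGDH, which oxidises D-2-hydroxyglutarate to 2-oxoglutarate, rose with siRNA-2 by 1.22 ± 0.08 (limma adjusted p = 0.0147) and differed by 0.03 with siRNA-1. UHRF1, which brings DNMT1 to newly copied DNA, read 0.27 and -0.59 with siRNA-1 and siRNA-2, and the difference between the siRNAs passed the test (-0.86 ± 0.08, limma adjusted p = 0.0407).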
